A study of Saccharomyces cerevisiae with 2 samples.

Results

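The 10 genes for the histones of the budding yeast Saccharomyces cerevisiae were described in 2 strains, taken by their symbols from tables that list 5659 genes with a read in either library. They comprise the duplicated genes of the 4 core histones (HTA1 and HTA2 for H2A, HTB1 and HTB2 for H2B, HHT1 and HHT2 for H3, HHF1 and HHF2 for H4), HTZ1 for the variant H2A.Z, and HHO1 for the linker histone H1. All 10 were found in both tables and all had a mean level above the minimum used to keep a gene, 1 RPKM (reads per kilobase of coding length and per mega, or M, reads of the library). ZTW1 is a wild type bioethanol strain, and ZGR3 is a mutant in the ZTW1 background. The labels do not say which gene is altered in ZGR3, how the mutant was obtained, or the ploidy of either strain. Cultures of 25 mL were started at an optical density at 600 nm of 0.05 in the rich medium YPD, which held 20 g/L glucose, 20 g/L peptone and 10 g/L yeast extract. Poly(A) RNA was taken at the entry into early stationary phase. There was 1 library per strain, with 4.66 M reads assigned to genes in ZTW1 and 4.61 M in ZGR3. The differences below could therefore not be checked in replicates, and no p-value is given. Intervals are exact 95% intervals of the counts, cover counting error only, and compare these libraries and not the strains.

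Core histones form the octamer around which DNA is wrapped in the nucleosome, a central H3-H4 tetramer flanked by H2A-H2B dimers. H2A.Z replaces H2A in nucleosomes beside many gene starts, and the linker histone binds the DNA between nucleosomes. In S. cerevisiae each core histone is encoded by a pair of genes, and the genes lie in divergent loci, each joining H2A with H2B or H3 with H4. Their transcription peaks in S phase, when new DNA is packaged, and is repressed outside it by the HIR complex at most of these loci. Yeast histone messages are polyadenylated, unlike most of those of animals, so selection of poly(A) RNA retains them. In a whole culture, fewer cells in S phase and less histone RNA per cell cannot be told apart.

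Histone messages stayed close to the same level in both libraries. The 10 genes together took 6802 reads in ZTW1, 0.146% of the total (Clopper-Pearson interval 0.142 to 0.149). In ZGR3 they took 7104 reads, 0.154% of the total (0.151 to 0.158). The summed share was thus 1.06-fold higher in ZGR3 (1.02 to 1.09). The 10 log2 ratios, log2((RPKM ZGR3 + 1)/(RPKM ZTW1 + 1)), ran from −0.31 for HTZ1 to 0.32 for HHO1, with a median of 0.03. The median over all 5532 genes kept was −0.02. Of the 10 genes, 5 lay above 0 and 5 below, where 48.0% of all genes kept lay above 0. None was at least 2-fold higher in ZGR3, where 0.542% of all genes kept were, and none was at least 2-fold lower, where 1.92% were. None passed 1.5-fold either, a limit added after the values were seen, which 3.63% of all genes kept passed as higher and 7.39% as lower in ZGR3. The counting interval of the fold lay wholly above 1 for 3 histone genes (HTA1, HTB1 and HHO1), against 17.9% of all genes kept, and wholly below 1 for 1 (HHT1), against 19.8%. Such intervals narrow with depth, and the median read number of the histone genes, 571 in ZTW1 and 595 in ZGR3, was above that of all genes kept, 196 and 189. Short genes were lower in ZGR3 in general, and the running median of log2 ratios at the coding lengths of the histone genes lay between −0.18 and −0.04. With this length trend subtracted, the interval lay wholly above 1 for 5 histone genes, HHT2 and HHF2 being added, against 18.3% of all genes kept. It then lay wholly below 1 for 0, against 18.4%.

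**Figure D1:**
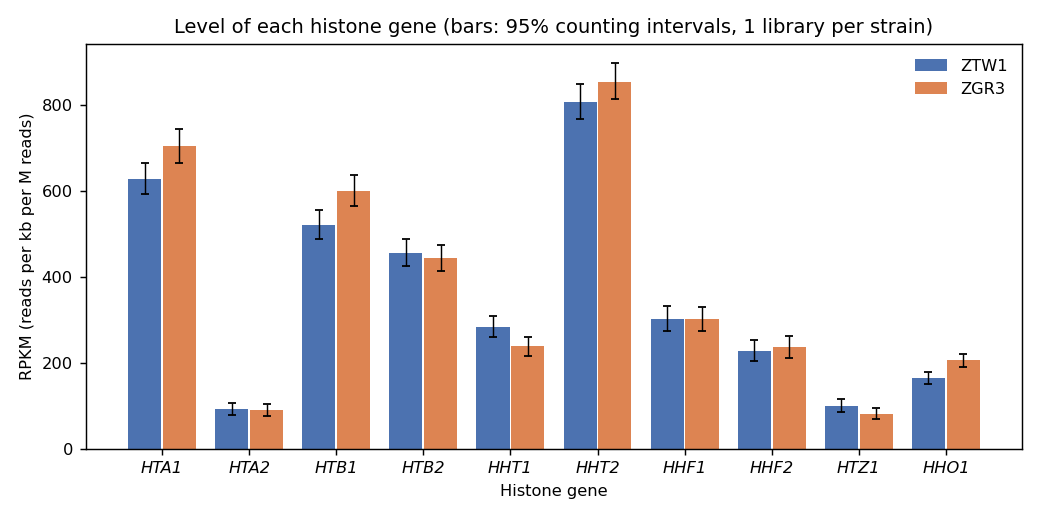
Level of each of the 10 histone genes in RPKM (linear axis) in the ZTW1 and ZGR3 libraries, with 95% counting intervals as error bars. HHT2 is highest in both, at 808 and 856 RPKM, and HTA2 and HTZ1 are lowest, between 80.9 and 101 RPKM.

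Most of the H2A message came from HTA1. HTA1 had 1171 reads in ZTW1 and 1296 in ZGR3, or 630 and 705 RPKM. The second copy, HTA2, had 172 and 166 reads, or 92.5 and 90.3 RPKM. HTA1 was thus 6.81-fold above HTA2 per coding length in ZTW1 and 7.81-fold above it in ZGR3. HTA1 was slightly higher in ZGR3 (1.12-fold, 1.03 to 1.21), while HTA2 showed no difference detectable at this depth (0.976-fold, 0.784 to 1.21). Summed, the H2A genes had 1343 reads in ZTW1 and 1462 in ZGR3, 1.10-fold higher in ZGR3 (1.02 to 1.19). The files describe HTA1 and HTA2 as nearly identical, and reads that match both are not counted as unique. Reads covered 94.99% of the HTA1 length in ZTW1 and 95.5% in ZGR3, and 89.7% and 92.2% of HTA2, where the median of 1918 genes with at least 50 RPKM in both libraries was 99.1% in ZTW1. Only 3.55% of those genes had a lower coverage than HTA2 in ZTW1. Both H2A copies thus include stretches without reads, their levels are uncertain, and the part of this in their ratio was not tested.

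The H2B genes were closer to each other. HTB1 had 964 reads in ZTW1 and 1096 in ZGR3, or 522 and 600 RPKM. HTB2 had 844 and 810 reads, or 457 and 444 RPKM. HTB1 was the higher copy in both libraries, by 1.14-fold in ZTW1 and 1.35-fold in ZGR3, and the counting intervals of the copies did not overlap in either. HTB1 was 1.15-fold higher in ZGR3 (1.05 to 1.255), and HTB2 showed no difference detectable at this depth (0.970-fold, 0.880 to 1.07). The sum of both copies, 1808 and 1906 reads, was 1.07-fold higher in ZGR3 with an interval that reached equality (0.999 to 1.14). Reads covered 98.99% to 99.75% of either gene. The interval of the sum lay wholly above 1 under trimmed mean of M values scaling (1.08-fold, 1.01 to 1.15).

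For H3, the gene on chromosome XIV gave most of the message. HHT2 had 1548 reads in ZTW1 and 1621 in ZGR3, or 808 and 856 RPKM, the highest level of the 10 genes in both libraries. HHT1 had 545 and 452 reads, or 285 and 239 RPKM. HHT1 was 1.19-fold lower in ZGR3 (1.05 to 1.35), and HHT2 was 1.06-fold higher with an interval that included equality (0.987 to 1.14). With the length trend subtracted, the interval of HHT1 included equality (0.898-fold, 0.791 to 1.02) and that of HHT2 lay above it (1.14-fold, 1.06 to 1.22). Their sum was level when scaled to total reads, with 2093 reads in ZTW1 and 2073 in ZGR3 (1.001-fold, 0.942 to 1.06). The sum was not computed with the length trend subtracted.

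The H4 genes had the lowest sum of the core histones. HHF1 had 440 reads in ZTW1 and 434 in ZGR3, or 303 and 302 RPKM, and HHF2 had 331 and 340 reads, or 228 and 236 RPKM. At this depth no difference between the libraries was detectable for HHF1 (0.997-fold, 0.871 to 1.14), for HHF2 (1.04-fold, 0.890 to 1.21; above 1 with the length trend subtracted, 1.17-fold, 1.006 to 1.37) or for their 771 and 774 summed reads (1.02-fold, 0.917 to 1.12). The H4 sum was not computed with the length trend subtracted. The H3 and H4 coding lengths were covered to at least 97.1% in both libraries.

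Equal amounts of the 4 core histones enter a nucleosome, and the summed levels of their messages were not equal. In ZTW1 the summed RPKM was 1093 for H3, 980 for H2B, 722 for H2A and 530 for H4. In ZGR3 it was 1094 for H3, 1044 for H2B, 795 for H2A and 538 for H4, in the same order. H3 was 2.06-fold above H4 in ZTW1 and 2.03-fold above it in ZGR3. The H4 genes have the shortest coding length, 312 bases against 411 for the H3 genes, and the part of length in this ratio was not tested. H2B was 1.36-fold above H2A in ZTW1 and 1.31-fold in ZGR3, a comparison that rests on the uncertain H2A level. These are levels per coding length from uniquely assigned reads, and neither reads lost to a second copy nor message ends outside the listed length enter them.

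The share of a pair's reads that came from its higher copy differed between the libraries for H2B and H3. HTB1 gave 53.3% of the H2B reads in ZTW1 (exact binomial interval 51.0 to 55.6) and 57.5% in ZGR3 (55.2 to 59.7). The odds ratio of ZGR3 over ZTW1 was 1.18 (1.04 to 1.35). HHT2 gave 74.0% of the H3 reads in ZTW1 (72.02 to 75.8) and 78.2% in ZGR3 (76.4 to 80.0), an odds ratio of 1.26 (1.09 to 1.46). For H2A the share of HTA1, 87.2% and 88.6%, gave an odds ratio of 1.15 with an interval that included 1 (0.907 to 1.45). For H4 the share of HHF1, 57.1% and 56.1%, gave 0.960 (0.781 to 1.18). These 4 intervals are not adjusted for their number, and a scaling of whole libraries does not enter them. Reads that match both copies of a pair are not counted as unique. The part of this in the shares was not tested for any pair.

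**Figure D2:**
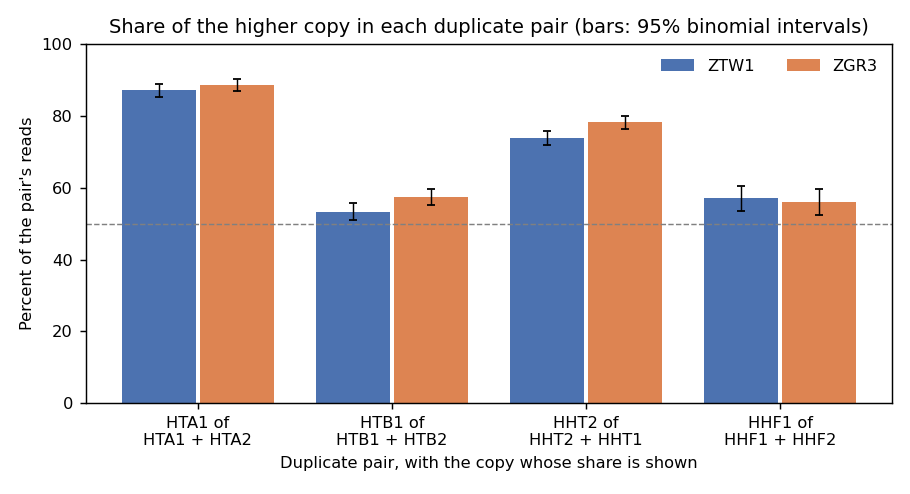
Percent of each duplicate pair's reads that came from its higher copy in ZTW1 and ZGR3, with exact 95% binomial intervals and a dashed line at 50%. The share of HTB1 is 53.3% in ZTW1 and 57.5% in ZGR3, that of HHT2 is 74.0% and 78.2%, and the intervals of both libraries overlap in every pair but H3.

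Grouped by divergent locus, a grouping added after the values were seen, the genes of the HTA1-HTB1 locus on chromosome IV were both higher in ZGR3. This locus had 2135 summed reads in ZTW1 and 2392 in ZGR3, 1.13-fold higher (1.07 to 1.201). The HTA2-HTB2 locus on chromosome II, which lacks HIR repression in laboratory strains, had 1016 and 976 reads, with an interval on both sides of equality (0.971-fold, 0.889 to 1.06). The HHT1-HHF1 locus, also on chromosome II, had 985 and 886 reads and was 1.10-fold lower in ZGR3 (1.003 to 1.21). The interval included equality under trimmed mean scaling (0.921-fold, 0.840 to 1.01). Of its genes, HHT1 was 1.19-fold lower in ZGR3, and HHF1 showed no difference detectable at this depth (0.997-fold, 0.871 to 1.14). The HHT2-HHF2 locus on chromosome XIV had 1879 and 1961 reads (1.06-fold, 0.990 to 1.12), and its interval lay just above 1 under that scaling (1.07-fold, 1.003 to 1.14). Within a locus the levels could be far apart. HTB2 was 4.94-fold above its divergent partner HTA2 in ZTW1 and 4.92-fold in ZGR3, and HHT2 was 3.55-fold and 3.62-fold above HHF2. HTA1 and HTB1 differed by 1.21-fold and 1.17-fold, and HHF1 and HHT1 by 1.06-fold in ZTW1 and 1.26-fold in ZGR3. The balance within a locus gave odds ratios between libraries whose intervals included 1 at each of the 4 loci, the furthest being 1.19 for HHF1 against HHT1 (0.987 to 1.43).

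**Figure D3:**
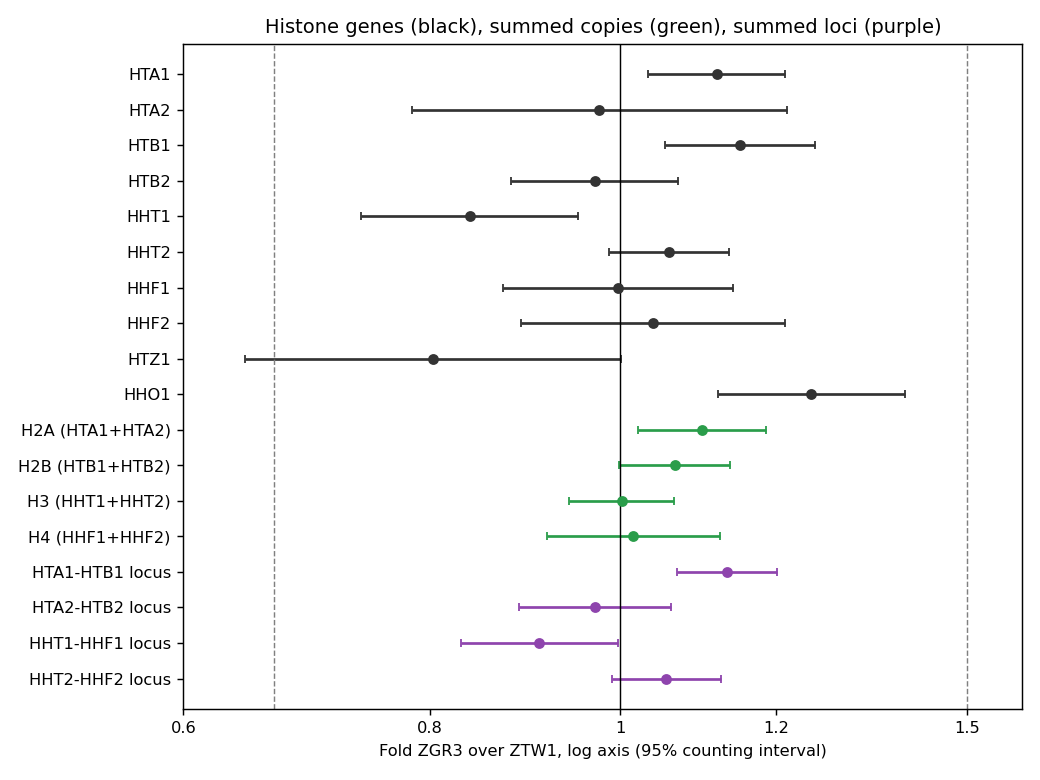
Fold of ZGR3 over ZTW1 (log axis) with 95% counting intervals for the 10 histone genes in black, the 4 summed duplicate pairs in green and the 4 summed divergent loci in purple; dashed lines mark 1.5-fold in either direction. HTA1, HTB1, HHO1, summed H2A and the HTA1-HTB1 locus have intervals wholly above 1, and HHT1 and the HHT1-HHF1 locus wholly below; that of the HHT1-HHF1 locus includes 1 under trimmed mean scaling, and that of HHT1 includes 1 with the length trend subtracted.

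The genes outside the core set had the log2 ratios furthest from 0 of the 10, in opposite directions. With the length trend subtracted HHO1 was still the furthest, at 0.36, whereas HTZ1, at −0.21, was nearer to 0 than HTB1, HTA1 and HHF2, at 0.31, 0.27 and 0.23. HHO1, for the linker histone, held 597 reads in ZTW1 (165 RPKM) and 738 in ZGR3 (206 RPKM). Its log2 ratio was 0.32, the interval of the fold ran from 1.12 to 1.39, and 87.0% of all genes kept had a lower log2 ratio. HTZ1, the H2A.Z gene, had 190 and 151 reads, or 101 and 80.9 RPKM. It was 1.24-fold lower in ZGR3, with an interval that just reached equality (0.9998 to 1.55), and 19.9% of all genes kept had a lower log2 ratio. Summed H2A stood 7.17-fold above H2A.Z per coding length in ZTW1 and 9.83-fold in ZGR3. Both ratios rest on the uncertain H2A level and on few HTZ1 reads, and no interval was computed for them.

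In both libraries the 10 genes followed nearly the same order of RPKM. HHT2, HTA1, HTB1, HTB2 and HHF1 were the 5 highest, in this order, and neighbours among them had intervals that did not overlap in either library. HHT1 followed in both, with an interval that overlapped that of HHF1 in ZTW1 and that of HHF2 in ZGR3. HHF2 and HHO1 came next, apart in ZTW1 and with overlapping intervals in ZGR3. HTZ1 and HTA2 were last, in exchanged order and with overlapping intervals in both libraries. HHT2 ranked 203 of 5659 genes by RPKM in ZTW1 and 176 in ZGR3. HTA2, the lowest of the 10 in ZTW1, ranked 1333 and 1318. HTZ1, the lowest in ZGR3, ranked 1237 and 1434. All 10 thus lay above the median of the listed genes.

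The genes around the histone loci lay on both sides of 0. The 12 genes that lie next to a histone gene and are not histone genes themselves had log2 ratios between −0.26 and 0.34, with a median of 0.04. Beside HTB1, CRF1 was at 0.32, and beside HTA1, the adenylate kinase gene ADK1 was at −0.07. Beside HHT1, which was at −0.25, the pyrophosphatase gene IPP1 was at 0.02. Beside HTB2, ECM15 was at −0.26, and beside HTA2, UTP20 was at 0.24. Beside HTZ1, the ubiquitin ligase gene HRD1 was at −0.22 and the phospholipase gene PLB3 at 0.34. The median over the 10 genes on each side, histone genes left out, was lowest around HHT1, at −0.10, and around HHF1, at −0.08. It was −0.05 around HTA1, HTB1, HHT2 and HHF2, −0.01 around HTA2 and −0.03 around HTB2. Around HTZ1 and HHO1 it was 0.04 and 0.03.

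Genes known to act on histones were described from 9 lists. The counts above 0 given for these lists stand beside 48.0% of all genes kept. Histone gene regulators include the HIR complex, the activators SPT10 and SPT21 and the transcription factors SWI4, SWI6 and MBP1. Their median log2 ratio was 0.10, with 9 of 12 above 0 and none past 1.5-fold. The furthest were HIR2, a HIR subunit, at 0.28 and ASF1, a histone chaperone, at 0.27. Histone chaperones and importers had a median of 0.19, with 11 of 16 above 0 and 2 at least 1.5-fold higher, HIF1 and CAC2, where 3.63% of all genes kept were. HIF1, which works with a histone acetyltransferase on newly made H4, had 206 reads in ZTW1 and 348 in ZGR3, 1.71-fold higher (1.43 to 2.04). CAC2, a subunit of the chromatin assembly factor that deposits H3-H4 on new DNA, had 146 and 233 reads, 1.61-fold higher (1.31 to 1.998). Genes for histone message and protein turnover had a median of 0.16, with 7 of 10 above 0. The furthest were LSM1, a decay factor, at −0.36 and UBC4, a ubiquitin-conjugating enzyme gene with a close paralog that can share reads, at 0.35.

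Genes whose products exchange or modify histones had list medians on both sides of 0. The SWR1 remodeller, which puts H2A.Z into nucleosomes, and the INO80 remodeller had a median of −0.06, with 10 of 23 genes above 0. Their furthest members were SWC5 at 0.82, from 47 and 85 reads, and IES5 at −0.75, from 86 and 50 reads. Acetyltransferase genes had a median of 0.14, with SGF29 at 0.59 and RTT109, which acetylates newly made H3, at 0.46 from 30 and 43 reads. Deacetylase genes had a median of 0.03, with HST4 at 0.52 from 14 and 22 reads and the silencing gene SIR2 at 0.49 from 199 and 279 reads. Genes for histone methylation and ubiquitination had a median of 0.05. SHG1, of the Set1 complex, was at −1.29 from 30 and 11 reads, the only gene of the 9 lists past 2-fold on this scale, which 1.92% of all genes kept passed as lower and 0.542% as higher. DOT1, the H3 methyltransferase gene, was at 0.94 from 22 and 49 reads, below 2-fold on this scale through the pseudocount, and its reads per total were 2.25-fold higher in ZGR3 (1.34 to 3.91). CSE4, the centromeric variant of H3, was at 0.05 from 131 and 134 reads, with no difference detectable at this depth (1.03-fold, 0.807 to 1.33). Of its partners, the chaperone gene SCM3 was at 0.25 and the ubiquitin ligase gene PSH1 at −0.20.

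The list of DNA synthesis genes, which like core histone genes are transcribed around the start of S phase, had a higher median. It also held the cyclin genes CLB5 and CLB6 and the cohesin gene MCD1. The median was 0.52, against 0.03 for the histone genes. Of the 16 genes, 14 lay above 0, where 48.0% of all genes kept did, and 5 were at least 1.5-fold higher, where 3.63% were. DPB2, a subunit of DNA polymerase epsilon, was 1.96-fold higher in ZGR3 (1.36 to 2.85), from 47 and 91 reads. POL1, the catalytic subunit of DNA polymerase alpha, was 1.68-fold higher (1.44 to 1.95), from 281 and 466 reads. The counting interval lay wholly above 1 for 11 of the 16, against 17.9% of all genes kept and 3 of the 10 histone genes. The lists differ in coding length, with a median of 1783.5 bases for this list and 399 for the histone genes. With the length trend subtracted, the medians were 0.50 for this list and 0.18 for the histone genes. The interval then lay wholly above 1 for 5 of the 10 histone genes, and the count for this list under that setting is not given here. Of the 16, RFA3, MCD1, PRI2 and CLB5 had log2 ratios within the range of the histone genes, at 0.31, 0.26, 0.10 and −0.01. CLB6 was the lowest, at −0.33 from 9 and 6 reads. No test of the difference between these lists was possible with 1 library per strain. Both lists were chosen with earlier results of these data known, so their contrast is a description and not independent support.

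**Figure D4:**
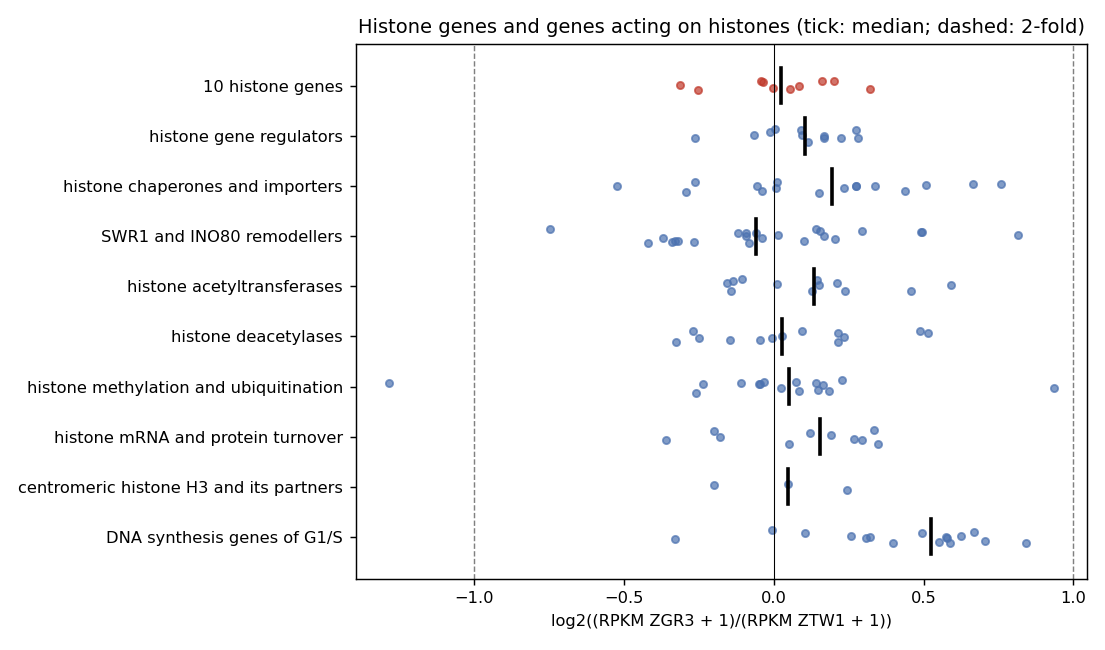
Log2 ratio of ZGR3 over ZTW1, log2((RPKM + 1)/(RPKM + 1)), for each gene of the histone set (red) and of 9 lists of related genes (blue), with a black tick at each median and dashed lines at 2-fold; vertical scatter within a row has no meaning. The histone genes lie between −0.31 and 0.32 with a median of 0.03, and the list of DNA synthesis genes has a median of 0.52. With the length trend subtracted, which is not drawn, these medians are 0.18 and 0.50. The lists were chosen with earlier results of these data known.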

How the data were processed

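Per the labels' protocols, total RNA came from a hot phenol extraction with 30 min of DNase, and Illumina libraries were prepared from its poly(A) fraction. The authors' tables hold, per the file headers, the count of reads uniquely assigned to each gene, the coverage (the percent of its length under reads) and RPKM, which reads, length and total gave back for 5659 of 5659 genes within a tolerance of 1e-06. The submitters' processing notes name the build sacCer2; aligner, filters and strand handling: not given in the sources used here. Reads of a gene and an antisense or overlapping neighbour cannot be told apart. All 5659 listed lengths were multiples of 3 and are called coding length. A gene absent from a table was set to 0. RefSeq assembly R64, another build, gave symbols, chromosomes and gene order only (5653 IDs matched).

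Log2 ratios used a pseudocount of 1 RPKM for 5532 genes with a mean of at least 1 RPKM. The 10 histone genes, the 9 lists of related genes and the alternatives were chosen with earlier results of these data known. Named genes were the 10 histone genes, their next neighbours among the genes kept (several given as a range), the 2 furthest members of each list, and CSE4. Folds of reads carry Clopper-Pearson intervals. Reads carry no molecular identifiers. The steps were tested on simulated data. Python 3.11.15, numpy 2.4.6, pandas 2.3.3 and scipy 1.17.1 were used.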

Additional observations from a re-analysis of the deposited data

How the results depend on the processing

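Alternatives were pseudocounts of 0.1 and 5 RPKM, no filter or a mean of at least 10 RPKM, centring on the median of all genes, trimmed mean of M values scaling, subtraction of a running median over genes ordered by coding length, and subtraction of chromosome medians. All 80 values of the 10 histone genes under these 8 settings lay within the gene's own counting interval, and none passed 2-fold. The filter settings leave the ratios of these genes, and so their median, unchanged by construction. The pseudocounts can move them only little at these levels, so those settings add little to the count. The same holds for centring and trimmed mean scaling, which subtracted small log2 values of −0.0164 and −0.0182. The median of the 10 genes ranged from 0.02 to 0.18 over 10 alternatives, which also included the 8 core genes alone and pairs summed first. It was highest after subtraction of the length trend, and 8 of the 10 genes then lay above 0, among them HTA2, HTB2 and HHF1, which lay below 0 before. HHF1, at 0.00, also changed sign under centring, trimmed mean scaling and chromosome medians. RPKM in place of reads gives the same pair sums and copy shares by construction, since both copies of a pair have equal lengths. Among the intervals computed, whether equality was excluded depended on the setting for HHT1, HHT2, HHF2, summed H2B and the HHT1-HHF1 and HHT2-HHF2 loci. HHT2 also lay above 1 with chromosome medians subtracted (1.10-fold, 1.02 to 1.18). Intervals of pair sums and loci were not computed with the length trend or chromosome medians subtracted, so their dependence on those settings is not known. The intervals under the alternatives were computed after the values were seen, as were the list medians. The median of the DNA synthesis list ranged from 0.41 to 0.56. That of the histone methylation and ubiquitination list ranged from −0.02, with the length trend subtracted, to 0.07, so its sign depended on the setting. No paired analysis was possible because there is 1 library per strain. Depth limits HTA2 and HTZ1 most, with at most 190 reads in either library.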
